A study of Homo sapiens with 26 samples.

Results

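The comparison described here set 2 independently labelled double knockout lines of HCT116 against each other, DKO-C1 with 3 libraries and DKO-C2 with 3 libraries, which are 6 of the 26 RNA-seq libraries of the series. The libraries were chosen by their column names: those of the double knockout sublines without JQ1, an inhibitor of BET bromodomain proteins. HCT116 is an epithelial line from a human colon carcinoma. Both lines carry CRISPR knockouts of CDK8 and of CDK19, and neither was treated. The 3 libraries of untreated, unedited HCT116 served as the reference, and 2 sublines each of a CDK8 knockout (CDK8KO) and of a CDK19 knockout (CDK19KO), with 3 libraries per subline, gave the same kind of line-to-line comparison in cells with 1 kinase left. Libraries of control cells (3) and of DKO-C1 (2) given JQ1 entered the shared fit and are used for 1 result on chromosome 16. The columns taken as DKO-C2 carry the clone number 3 in the count table and were assigned by elimination, so their libraries are called a, b and c. Each line is 1 subline, and nothing in the sources used here says whether its 3 libraries came from separate cultures. The p-values therefore measure spread between libraries of the same group, estimated over all 26 libraries in 9 groups, and not spread between sublines.

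CDK8 and its paralog CDK19 are alternative kinases of the Mediator kinase module, a detachable part of Mediator made with cyclin C, MED12 or MED12L, and MED13 or MED13L. Mediator carries signals from DNA-bound transcription factors to RNA polymerase II, and the module tunes signal-driven genes, among them those of the Wnt, TGF-beta, serum and stress responses. In colon carcinoma CDK8 is known as a coactivator of beta-catenin. Sublines grown from edited cells can also differ in ways that have nothing to do with the edit, which is why knockouts are usually studied in more than 1 line.

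Gene counts per library were 18329406 to 18891777 in the 6 libraries, and 17198 of the 58039 listed genes passed the filter on low counts and were tested. All 6 epithelial markers (EPCAM, CDH1, KRT8, KRT18, KRT19 and CLDN7) were at or above 1 CPM (counts per 1e6 library counts, scaled by TMM factors) in both lines. Markers of endothelial and immune cells summed to at most 1.24 CPM and 0.976 CPM in any library of the lines. Library b of DKO-C2 stood apart from its replicates. Its counts differed from those of libraries a and c by 12.3 and 10.1 times what sampling gives (chi-square over its degrees of freedom), while the other 4 pairs of libraries within the lines gave 2.19 to 3.08. ERCC spike-in counts were 1.80% of gene counts in library b and 2.001% to 2.46% in the other 5, and results are given below without library b as well. Across genes, log2 CPM correlated with Pearson's r of 0.992 to 0.995 within the lines, 0.989 to 0.992 between them and 0.917 to 0.924 with control. The values with control include the pseudogenes, 1831 of the tested genes, whose median against control was -3.07 in each line.

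The question was which genes differ between lines that carry the same pair of knockouts. Of the genes tested, 1620 differed (9.42%) at an adjusted p under 0.05: 631 were higher in DKO-C1 (3.67%) and 989 were lower (5.75%). For 3708 genes (21.6%) the 3 libraries of one line all lay above the 3 of the other, and 1511 of the called genes were among them. Most differences were small. The median size among called genes was 0.32 on the log2 scale, 1259 of the 1620 (77.7%) were under 1.5-fold, and 73 genes were at least 2-fold higher and 79 at least 2-fold lower in DKO-C1. Protein-coding genes were called in 11.6% of 13198 tested, other noncoding genes in 3.04% of 2169 and pseudogenes in 1.20% of 1831. Without library b of DKO-C2, 1237 genes were called, 1015 of them shared with the full comparison. Leaving out DKO-C1 library 1 gave 982 calls, and a fit of the 6 libraries alone gave 693. When libraries were scaled by their ERCC counts, the median of all genes moved to -0.22 and the split became 63 higher and 903 lower, so every rise or fall here is relative to the middle of all genes.

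**Figure D1:**
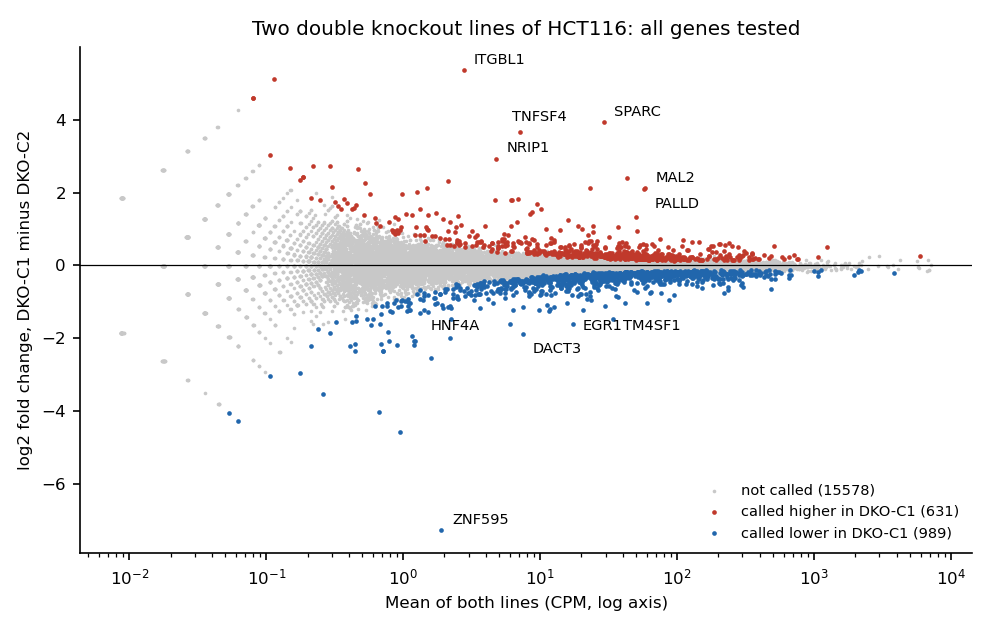
The log2 fold change of DKO-C1 against DKO-C2 for each of the 17198 genes tested (vertical axis) against its mean level in both lines in CPM (horizontal log axis); colours mark the 631 genes called higher and the 989 called lower in DKO-C1. Most called genes lie close to the zero line, and ITGBL1, SPARC, TNFSF4 and ZNF595 stand farthest from it among the labelled genes.

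The transcripts of the targeted genes were checked first. CDK8 was at 39.9, 35.4 and 38.1 CPM in the DKO-C1 libraries, 40.4, 38.8 and 37.9 CPM in DKO-C2 and 50.1, 50.4 and 52.2 CPM in control. The lines overlapped (log2 fold change -0.05 ± 0.06, SE, adjusted p = 0.71), and both were below control by 0.43 and 0.38. CDK19 was at 34.8, 33.1 and 31.8 CPM in DKO-C1, 39.7, 34.6 and 41.3 CPM in DKO-C2 and 29.9, 24.4 and 27.4 CPM in control. It was called lower in DKO-C1 (-0.21 ± 0.07, adjusted p = 0.045), a call that was lost when 5 of the 6 libraries were left out in turn. Relative to the middle of all genes, both lines thus still made CDK19 RNA above the control level, by 0.28 and 0.50. With ERCC factors that middle itself moved to -1.03 in DKO-C1 and -0.81 in DKO-C2 against control. Gene counts say nothing of whether the CDK19 RNA can be translated. The other 5 subunits of the module (CCNC, MED12, MED12L, MED13 and MED13L) were not called between the lines, with log2 fold changes of -0.05 to 0.14. Of 23 tested genes listed as chromosome neighbours of CDK8 or CDK19, 3 were called higher in DKO-C1 and 1 was called lower (17.4% called, against 9.42% of all genes). TUBE1, encoding epsilon-tubulin, was 1 of the 3, with 46.8, 44.7 and 39.7 CPM in DKO-C1 and 30.3, 29.7 and 30.4 CPM in DKO-C2. The list reaches farther than 1 Mb, and TUBE1 lies beyond that distance from CDK19. Taken by position, 1 of 8 tested genes within 1 Mb of CDK8 was called, and 2 of 20 within 1 Mb of CDK19.

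The largest rises and falls were taken among called genes with a mean of 5 CPM or more in a line, 15 in each direction. ITGBL1 (chromosome 13, 101452593 to 101720856, hg38), which encodes a secreted protein with integrin-like EGF repeats, was at 4.98, 5.42 and 5.80 CPM in DKO-C1 and 0.107, 0.109 and 0.157 CPM in DKO-C2. It was at 0.367, 0.548 and 0.481 CPM in control, so the lines lay on either side of the parental level (5.36 ± 0.27 between the lines, adjusted p = 9.0e-17). SPARC (chromosome 5, 151661096 to 151687165), a collagen-binding matricellular glycoprotein, reached 53.7, 53.7 and 56.7 CPM in DKO-C1, 3.79, 4.03 and 2.98 CPM in DKO-C2 and 0.262, 0.438 and 0.214 CPM in control. It was above control in both lines, and by 3.93 ± 0.10 more in DKO-C1 (adjusted p = 1.2e-26). TNFSF4, the ligand of the T-cell costimulatory receptor OX40, was at 13.4, 12.6 and 13.6 CPM in DKO-C1, 1.33, 0.871 and 0.888 CPM in DKO-C2 and 2.88, 2.36 and 2.19 CPM in control. The difference was 3.67 ± 0.15, and no library of one line came near those of the other.

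A second set of rises consisted of genes that both lines expressed below control and DKO-C2 much less than DKO-C1. NRIP1, a corepressor of nuclear receptors, was at 53.6, 46.1 and 53.1 CPM in control, 9.16, 8.40 and 7.84 CPM in DKO-C1 and 1.28, 0.599 and 1.41 CPM in DKO-C2 (2.93 ± 0.19 between the lines). PALLD, which encodes the actin-bundling protein palladin, had 307, 323 and 304 CPM in control, 91.3, 91.8 and 96.1 CPM in DKO-C1 and 21.8, 23.0 and 21.1 CPM in DKO-C2 (2.08 ± 0.06). MAL2, a membrane protein of epithelial transcytosis, and S100A14, an epithelial calcium-binding protein, followed the same order (2.12 ± 0.06 and 2.11 ± 0.08), as did the long noncoding RNA CASC19 (1.81 ± 0.11). GALNT3, which starts mucin-type O-glycosylation, was at 15.1, 13.0 and 12.9 CPM in control, 11.7, 13.5 and 11.8 CPM in DKO-C1 and 4.37, 5.06 and 4.39 CPM in DKO-C2, so DKO-C2 lay apart from the parental cells and DKO-C1 overlapped them. The opposite order held for LCP1, the actin bundler plastin-2, with 0.472 to 1.04 CPM in control, 4.27 to 4.75 CPM in DKO-C2 and 13.4 to 15.3 CPM in DKO-C1, and for the sialyltransferase ST6GALNAC5. PROM2, a surface protein of epithelial cells, was higher in DKO-C1 by 1.80 ± 0.19, while DKO-C2 was not called against control (adjusted p = 0.42, edgeR). HMGN5, a nucleosome-binding protein, and ATP2C2, a calcium and manganese pump of the secretory pathway, were also higher in DKO-C1, by 1.54 and 1.81.

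The 15 largest falls in DKO-C1 at that level ran from -1.04 to -1.90, and some genes at lower levels, among them EGR3, ZNF850 and LINC00917, differed by more. DACT3, an antagonist of Wnt signalling, was at 2.86, 2.76 and 3.81 CPM in DKO-C1, 10.2, 13.8 and 11.2 CPM in DKO-C2 and 1.68, 1.81 and 1.82 CPM in control (-1.90 ± 0.14, adjusted p = 5.4e-13). HNF4A, a nuclear receptor that specifies intestinal epithelium, was at 3.18, 3.13 and 2.53 CPM in DKO-C1 and 8.85, 9.58 and 8.67 CPM in DKO-C2, against 8.86, 7.62 and 7.54 CPM in control. It fell from the parental level in DKO-C1 and stayed within 0.17 of it in DKO-C2. The growth-signal genes EGR1 and NR4A2 shared this order, EGR1 with 7.94, 8.97 and 8.70 CPM in DKO-C1, 26.9, 29.8 and 21.0 CPM in DKO-C2 and 26.1, 40.6 and 34.3 CPM in control. So did VSNL1, a neuronal calcium sensor (-1.20 ± 0.10). TM4SF1, a surface protein of the transmembrane-4 L6 family, had no count in any control library and stood at 18.4, 17.5 and 18.1 CPM in DKO-C1 and 49.4, 50.6 and 50.2 CPM in DKO-C2. DRAXIN, GPR176, MAMDC2 and FOXF1 were likewise above control in both lines and highest in DKO-C2. ADGRF1, an adhesion G protein-coupled receptor, and RGS2, a brake on G protein signalling, were below control in both lines and lowest in DKO-C1. TCN2, a carrier protein of vitamin B12, was 2.12, 2.66 and 1.93 CPM in DKO-C1 and 5.12, 5.93 and 4.08 CPM in DKO-C2. Control was at the DKO-C1 level. SUSD2 and the desmosomal cadherin DSC3 lay below control in DKO-C1 and above it in DKO-C2. All 30 of these genes stayed called without library b, and 17 of them passed a test against a 2-fold minimum change. As the strand setting of the counting is not known, exons on the other strand leave some uncertainty for 10 of them, and exons of another gene on the same strand for 3.

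**Figure D2:**
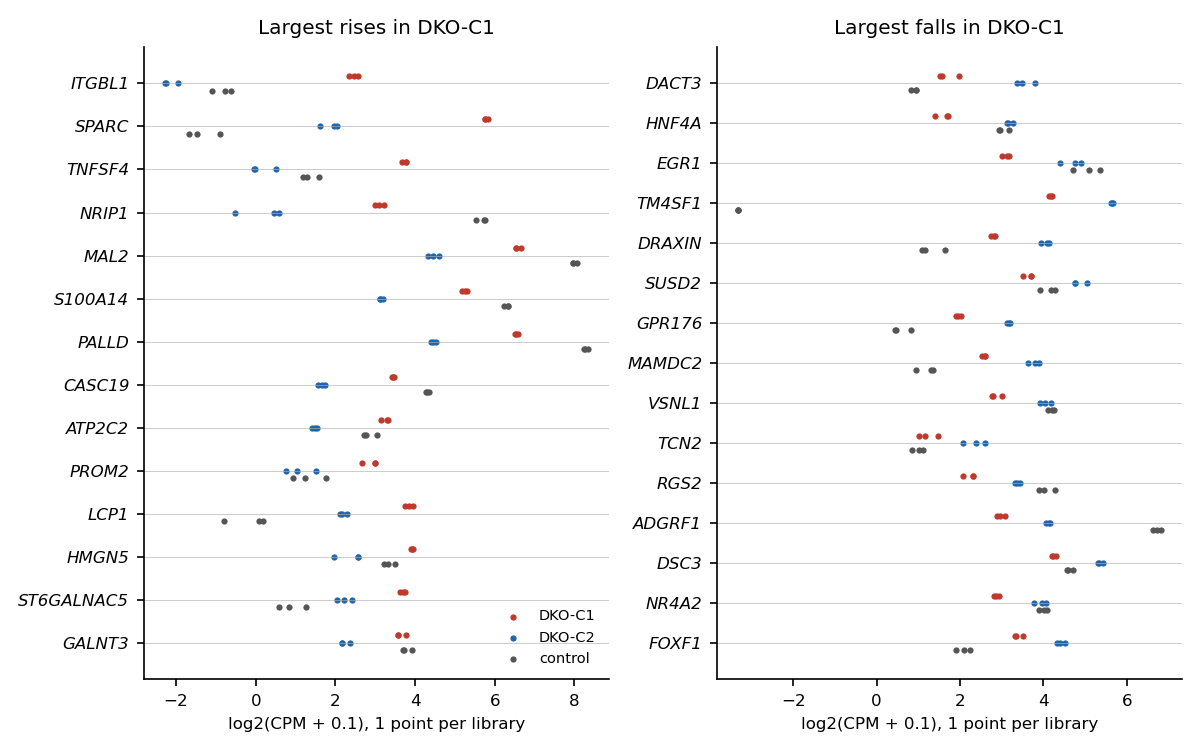
Levels of 14 of the 15 largest rises (left) and the 15 largest falls (right) in DKO-C1 as log2(CPM + 0.1), with 1 point per library and 3 libraries each of DKO-C1, DKO-C2 and control. The libraries of a line lie close together, and control falls on either side of the lines or between them. That the lines do not overlap for any of the 29 genes was a condition of the choice.

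Genes of the integrated stress response were higher in DKO-C1. This pathway, 1 of 47 gene lists and the one in which the transcription factor ATF4 switches on amino acid transport and synthesis, had 31 tested members, of which 20 were called higher in DKO-C1 and none lower, against 3.67% and 5.75% of all genes. Their median was 0.28, against -0.01 over all genes. Without library b, 25 were higher and 1 was lower, and with ERCC factors 2 were higher, the median falling to 0.07. TRIB3, a pseudokinase that feeds back on ATF4, was at 68.3, 66.3 and 64.9 CPM in DKO-C1, 32.6, 39.1 and 32.1 CPM in DKO-C2 and 92.3, 94.2 and 96.0 CPM in control (0.94 ± 0.06, adjusted p = 2.0e-14). DDIT4, an inhibitor of mTORC1, was at 16.1, 15.2 and 15.3 CPM in DKO-C1 and 10.1, 10.2 and 8.67 CPM in DKO-C2. CHAC1, a glutathione-degrading enzyme, was at 9.74, 9.54 and 9.62 CPM against 5.81, 7.405 and 5.23 CPM. NUPR1 showed the largest rise of the list at a low level, with 3.02, 2.503 and 2.10 CPM against 0.906, 1.03 and 0.836 CPM. The serine pathway enzymes PSAT1 (0.49), PHGDH (0.45) and PSPH (0.21), the mitochondrial folate enzyme MTHFD2 (0.34), and the amino acid transporters SLC7A11 (0.55), SLC6A9 (0.45), SLC1A5 (0.28), SLC3A2 (0.27), SLC7A5 (0.24) and SLC7A1 (0.21) were all higher, as was ATF4 itself (0.23 ± 0.05), although 21.7% of its sampled 50-base words occur in other genes. Asparagine synthetase (ASNS, 0.47, adjusted p = 0.24, 38.2% shared words), DDIT3 (0.32, adjusted p = 0.077) and ATF3 (-0.04) were not called. Against control the list's median was -0.28 in DKO-C1 and -0.57 in DKO-C2, so most of these genes were below the parental level in both lines and lower in DKO-C2.

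ATF4 binds the C/EBP-ATF response element. Its core TGATGCAA was searched on both strands in the 250 bases before each gene start listed by RefSeq (GRCh38.p14), where 10724 tested genes had a sequence and a gene could have several starts. The motif was present for 3 of the 17 called members with a sequence (17.6%), for 4 of the 26 tested members with one (15.4%) and for 63 of all 10724 genes (0.588%). These 3 sequences are shown because they carry the element in genes that were higher in DKO-C1 together. The element is in capitals, and 1 start is given for each gene. All 3 sequences lie inside the span of their gene in GENCODE v29, so none precedes the outermost start there. A match describes letters, not binding. They lie at chr15:40953221-40953470 (plus strand, element 209 bases before the start), chr19:33373863-33374112 (plus strand, 42 bases) and chr19:46784815-46785064 (minus strand, 97 bases).
CHAC1: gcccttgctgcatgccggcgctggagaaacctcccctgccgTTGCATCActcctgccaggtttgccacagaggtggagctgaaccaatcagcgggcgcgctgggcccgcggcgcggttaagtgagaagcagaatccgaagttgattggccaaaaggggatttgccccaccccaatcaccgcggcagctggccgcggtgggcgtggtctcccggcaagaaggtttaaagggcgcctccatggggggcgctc
CEBPG: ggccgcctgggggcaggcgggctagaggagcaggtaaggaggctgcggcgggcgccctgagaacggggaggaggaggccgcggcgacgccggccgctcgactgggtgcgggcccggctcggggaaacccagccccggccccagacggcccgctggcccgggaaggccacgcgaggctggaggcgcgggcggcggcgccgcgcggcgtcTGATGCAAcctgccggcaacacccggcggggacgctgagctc
SLC1A5: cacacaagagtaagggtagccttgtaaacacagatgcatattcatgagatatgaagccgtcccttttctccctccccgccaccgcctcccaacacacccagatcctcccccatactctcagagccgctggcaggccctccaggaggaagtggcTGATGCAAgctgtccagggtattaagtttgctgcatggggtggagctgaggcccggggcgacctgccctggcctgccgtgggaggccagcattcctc

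The antioxidant genes that NRF2 controls moved the same way. Of 18 tested members, 8 were called higher in DKO-C1 and none lower, against 3.67% and 5.75% of all genes, with a median of 0.22. With ERCC factors 1 was higher and the median was -0.00. GCLM and GCLC, the subunits of the enzyme that limits glutathione synthesis, differed by 0.42 ± 0.06 and 0.25 ± 0.06. GCLM was at 145, 132 and 133 CPM in DKO-C1 and 110, 94.6 and 101.2 CPM in DKO-C2, above control (89.0 to 92.4 CPM) in both. Malic enzyme ME1 (0.43), the cystine transporter SLC7A11 (0.55, also a member of the stress response list), ferritin light chain FTL (0.30, 13.95% shared words), TXNRD1 (0.23) and GSR (0.20) were the others beside OSGIN1 (0.92 ± 0.08, 11.9% shared words), which lies in the chromosome 16 stretch described below. The antioxidant response element TGACNNNGC was present before a start of 3 of the 6 called members with a sequence and of 5 of the 12 tested members with one (41.7%), against 16.04% of all genes. Of 20 tested genes of the unfolded protein response of the endoplasmic reticulum, 3 were higher (HERPUD1 by 0.26, XBP1 by 0.22 and ATF6 by 0.17) and 2 lower (PDIA4 and MANF), with a median of -0.01. These 5 of 20 stand beside 9.42% called of all genes.

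Called epithelial genes were mostly higher in DKO-C1 and called mesenchymal genes mostly lower, each with exceptions. Of 31 tested epithelial genes, 12 were called higher in DKO-C1 and 3 lower, against 3.67% and 5.75% of all genes. Their median was 0.15, which turned to -0.08 with ERCC factors (0 higher and 2 lower). E-cadherin (CDH1) was at 127, 132 and 126 CPM in DKO-C1, 88.2, 87.0 and 89.6 CPM in DKO-C2 and 70.3, 69.1 and 66.2 CPM in control (0.54 ± 0.04, adjusted p = 7.6e-12). The epithelial splicing factor ESRP1 was at 213, 204 and 213 CPM against 144, 139 and 149 CPM, with control at 202, 176 and 182 CPM. The transcription factor GRHL2 (0.61), the vesicle GTPase RAB25 (0.60), EPCAM (0.38), CLDN7 (0.39) and OCLN (0.30) were also higher. The keratins split: KRT7 (0.73 ± 0.19) and KRT23 (1.18 ± 0.20) were higher in DKO-C1, while the abundant KRT8, KRT18 and KRT19 were lower by 0.22, 0.26 and 0.30. In KRT8 and KRT18, 10.6% and 13.7% of sampled words are shared with other genes. Summed, the 6 epithelial markers, KRT8, KRT18 and KRT19 among them, reached 6147 to 6679 CPM in DKO-C1 and 6798 to 7604 CPM in DKO-C2. Like all marker sums, these are without TMM scaling.

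Of 21 tested mesenchymal genes, 10 were called lower in DKO-C1 and 1 higher, against 5.75% and 3.67% of all genes. Their median was -0.28, and without library b 8 were lower and 1 higher. Vimentin (VIM) was at 16.3, 13.9 and 15.2 CPM in DKO-C1, 29.2, 29.9 and 27.7 CPM in DKO-C2 and 5.35, 4.28 and 4.33 CPM in control (-0.94 ± 0.08, adjusted p = 1.1e-10). ZEB1, a repressor of E-cadherin, was at 14.8, 13.7 and 12.4 CPM against 25.4, 23.9 and 23.7 CPM. S100A4 (-0.57), fibronectin FN1 (-0.51), the transcription factor SNAI2 (-0.51), the actin-binding TAGLN (-0.51) and the collagen VI chains COL6A1 (-0.40) and COL6A2 (-0.35) were lower as well. S100A4 apart, which DKO-C1 held at the control level (0.05), both lines were above control for the called mesenchymal genes, with a list median of 1.13 in DKO-C1 and 1.38 in DKO-C2 against control. SPARC was the member called the other way. Fibroblast markers summed to 25.3 to 30.3 CPM in DKO-C1 and 23.9 to 31.4 CPM in DKO-C2, with 5 and 6 of the 10 at 0 in every library. Matrix genes, tested as a list of collagens, laminins and glycoproteins, were lower in DKO-C1 for 8 of 34 and higher for 2. That is 29.4% called, against 9.42% of all genes. COL13A1, a transmembrane collagen, was at 67.4, 70.5 and 67.9 CPM in DKO-C1 and 115, 126 and 120 CPM in DKO-C2, against 5.402 to 5.94 CPM in control (-0.81 ± 0.05). COL12A1 (-0.65), versican VCAN (-0.60) and COL18A1 (-0.49) followed.

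Lists of genes that respond to signals are read against the 5.75% of all genes called lower and the 3.67% called higher. Of 17 tested Wnt target genes, 11 were called lower in DKO-C1 and none higher (median -0.22, and 9 lower without library b). BMP4, a ligand, was at 230, 240 and 249 CPM in DKO-C1, 335, 377 and 337 CPM in DKO-C2 and 129, 146 and 140 CPM in control (-0.55 ± 0.05, adjusted p = 1.1e-10). NOTUM, a secreted enzyme that inactivates Wnt ligands, was at 19.2, 20.5 and 21.4 CPM against 28.1, 38.5 and 31.8 CPM, with control at 5.21 to 6.47 CPM. The feedback gene AXIN2 was lower by 0.49 ± 0.07, though 26.4% of its sampled words are shared with another gene. TNFRSF19 (-0.64), NKD1 (-0.47), SP5 (-0.37) and TCF7 (-0.36) were lower too. RNF43 and SOX9 were lower in DKO-C1 by 0.22 and 0.18 and lay below control in both lines, and 58.0% of the sampled words of RNF43 are shared. DKK1 (-0.27) and CD44 (-0.15) complete the 11.

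Of 22 YAP/TEAD targets, 9 were called lower in DKO-C1 and none higher (median -0.17, and 12 lower without library b). CTGF, a secreted matricellular protein, was at 194, 180 and 185 CPM in DKO-C1, 281, 296 and 267 CPM in DKO-C2 and 1.84, 6.80 and 4.71 CPM in control (-0.59 ± 0.09). CYR61, of the same family, was at 447, 405 and 417 CPM against 554, 559 and 519 CPM. The difference between the lines was thus small beside that of either line from control, 4.39 and 4.75 for CYR61. Of 15 TGF-beta and SMAD targets, 7 were lower and 1 higher (5 and 1 without library b), among the lower ones the activin subunit INHBB (-0.79), the pseudoreceptor BAMBI (-0.75) and the inhibitory factor ID3 (-0.50). The higher one was LTBP2, a binding protein of latent TGF-beta, by 0.30 ± 0.08.

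Immediate early genes, which growth factors and serum switch on within minutes, were lower in DKO-C1 for 10 of 27 and higher for none (median -0.17, and 7 lower without library b). Beside EGR1 and NR4A2, EGR3 was at 0.265, 0.730 and 0.269 CPM in DKO-C1 and 1.92, 2.29 and 1.67 CPM in DKO-C2 (-2.19 ± 0.32, adjusted p = 5.7e-06). FOS was at 2.49, 2.503 and 2.20 CPM against 4.11, 4.57 and 4.08 CPM, and JUN at 34.5, 32.4 and 37.0 CPM against 44.4, 49.2 and 43.3 CPM. FOSB (-1.03 ± 0.25) was not called without library b. Of 20 genes that report MAPK output, 4 were lower and none higher. SPRY2 and ETV4 were not called without library b, while DUSP4 was lower by 0.24 ± 0.05.

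Regional identity genes differed in a few members, and the lists here are read against 5.75% of all genes called lower and 3.67% higher. Of 29 tested HOX genes, 6 were called lower in DKO-C1 and none higher (4 lower without library b), and all 6 belong to the HOXB cluster, which patterns the hindgut among other tissues. HOXB8 was at 60.5, 62.5 and 62.6 CPM in DKO-C1, 84.4, 97.7 and 84.2 CPM in DKO-C2 and 55.0, 68.0 and 66.2 CPM in control (-0.52 ± 0.06). HOXB4 was lower by 0.44 ± 0.07, with exons and 13.0% of sampled words shared with another gene. Of 10 intestinal identity genes, 4 were lower and none higher: HNF4A (-1.61), the mucin MUC13 (-1.29 ± 0.29), KLF5 (-0.39) and ELF3 (-0.25, not called without library b). Axon guidance genes of the semaphorin, neuropilin and plexin families were lower for 7 of 25 and higher for 1. SEMA3A was that one, at 34.2, 32.4 and 31.5 CPM in DKO-C1, 16.2, 14.6 and 15.9 CPM in DKO-C2 and 10.3 to 12.1 CPM in control (1.07 ± 0.08, adjusted p = 5.8e-13). Its receptor NRP1 was lower by 0.65 ± 0.13.

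Lists of the growth machinery are read against 9.42% of all genes called. No member was called among 13 protein-coding genes of the mitochondrial chromosome, though of all 36 tested genes of that chromosome 5 were higher (13.9%) and 1 was lower, with a median of 0.17. The 5 were both ribosomal RNAs (MT-RNR1 and MT-RNR2) and the transfer RNAs MT-TV, MT-TM and MT-TG. No member was called among 17 G1 cyclins, kinases and inhibitors and 10 replication-dependent histones. Of 43 cytosolic ribosomal proteins 1 was called (RPS15, lower, not called without library b). Of 29 mitosis genes only UBE2C was called (lower), and of 32 S-phase genes GINS2 was higher and TYMS lower. Of 32 ribosome biogenesis genes 2 were higher (POLR1B and DDX21), and of 34 nuclear-encoded respiratory chain genes 2 were higher (COX4I1 and NDUFA5, the latter not called without library b). Among 30 genes of cholesterol and fatty acid synthesis 2 were higher and 2 lower, and among 30 p53 targets 1 was higher and 4 lower. Of 29 hypoxia and glycolysis genes 5 were lower and 1 was higher, which is 20.7% called. The higher one was the hexokinase HK2 (0.32 ± 0.07), and the lower ones included the glucose transporter SLC2A3 at 26.04, 27.5 and 28.6 CPM in DKO-C1 and 57.9, 53.7 and 55.8 CPM in DKO-C2 (-1.03 ± 0.07), although 16.5% of its sampled words occur in other genes. Of 19 antigen presentation genes 4 were lower (21.1%), and of 32 interferon response genes 3 were lower (9.38%), the latter share being close to that of all genes. The EGF family ligand NRG1 was lower by 1.03 ± 0.14 and EREG higher by 0.37 ± 0.07. The DNA methyltransferase DNMT3B, the 1 member called of 19 genes of DNA methylation and mismatch repair, was higher by 0.34 ± 0.06.

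**Figure D3:**
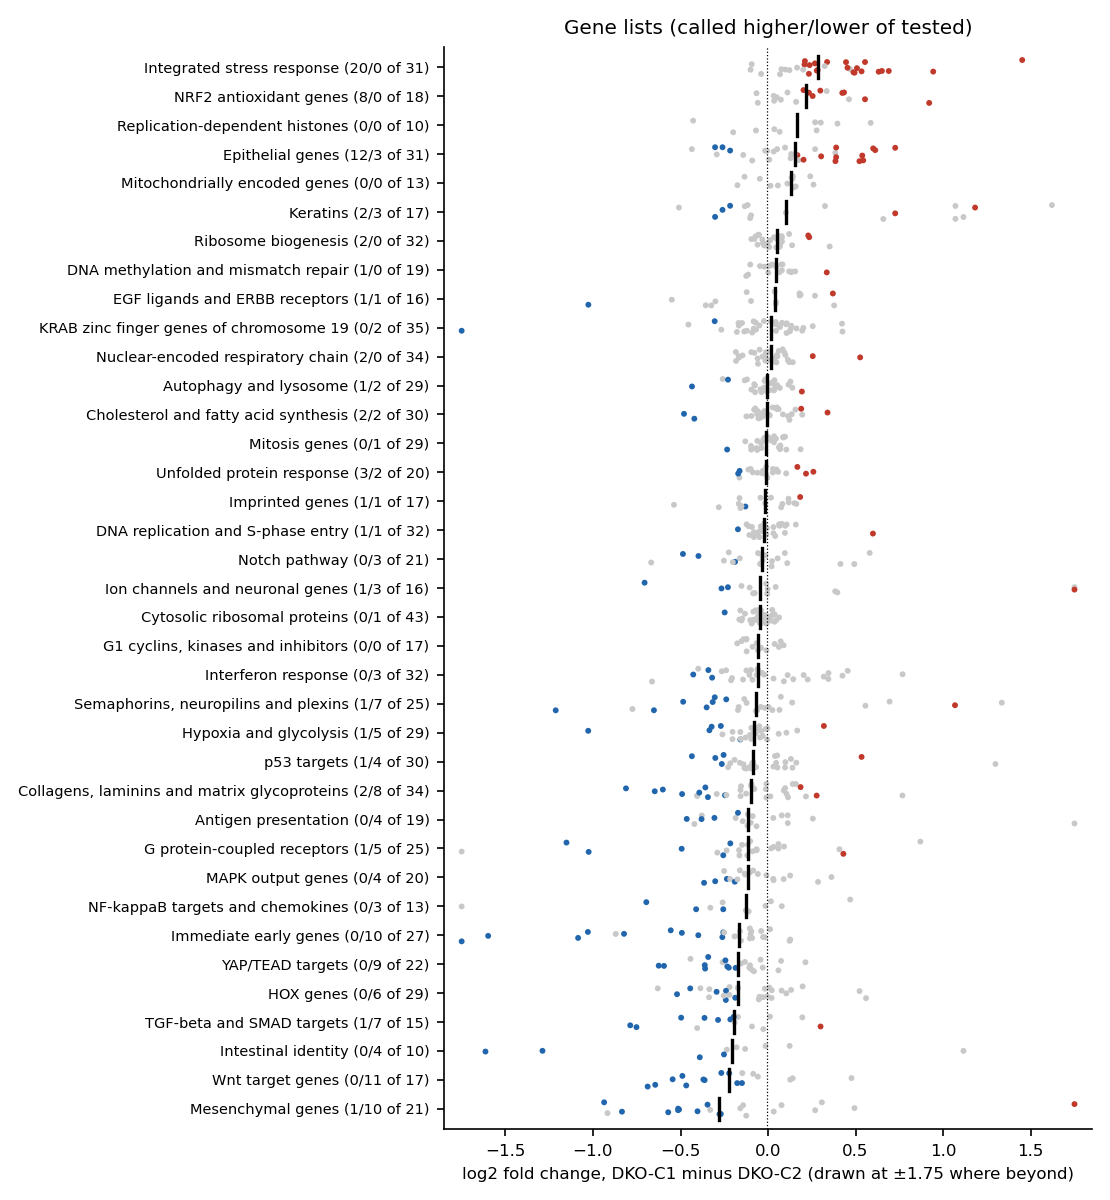
Log2 fold changes of DKO-C1 against DKO-C2 for the tested members of 37 gene lists, ordered by list median (black bars), with members called higher in DKO-C1 in red, called lower in blue and not called in grey; labels give the numbers called higher and lower of those tested. The stress response and NRF2 lists sit highest with no member called lower, and the mesenchymal and Wnt lists sit lowest.

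Each line was also set against control. DKO-C1 differed from control in 9610 genes (55.9%) and DKO-C2 in 10127 (58.9%). This order turned when only the libraries compared were fitted (9580 and 8690) and with ERCC factors (14995 and 13855). These comparisons share the control libraries, in which pseudogenes hold 2.89% to 2.95% of gene counts against 0.422% to 0.463% in the 6 double knockout libraries. Of the 1620 genes that differed between the lines, DKO-C2 differed from control by the larger amount in 1142 and DKO-C1 in 478. In a set of protein-coding genes with little shared sequence, where 1333 were called, the counts were 939 and 394. Control lay between the lines for 374 of the 1620. Among called members, DKO-C2 was the farther line for 17 of 20 stress response genes, 9 of 11 Wnt targets, 10 of 11 mesenchymal genes and 9 of 15 epithelial genes. The farther line was counted with TMM scaling only, and not over all genes tested. With ERCC factors the median of all genes against control moved to -1.03 in DKO-C1 and -0.81 in DKO-C2, so these counts depend on the scaling. The plot of these 4 lists against control gives both lines' values for each gene.

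**Figure D4:**
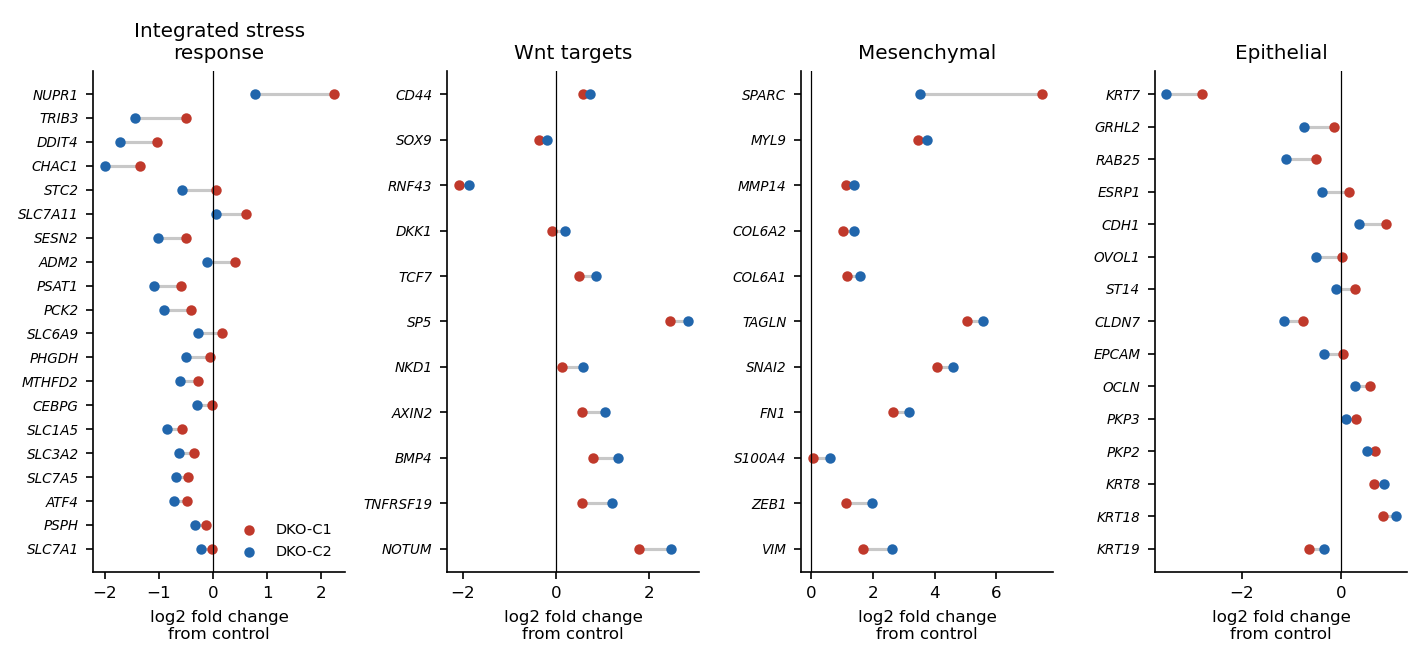
Log2 fold changes from control of DKO-C1 (red) and DKO-C2 (blue) for the members called between the lines in 4 lists, sorted by the difference between the lines. DKO-C2 is to the left of DKO-C1 for all 20 stress response genes and to the right for all 11 Wnt targets. That order follows from the calls that chose these genes, so only the places relative to control are added here. SPARC is the widest gap, at 7.46 against 3.54.

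The differences were also followed along the chromosomes. In runs of 51 neighbouring tested genes, the median log2 fold change lay between -0.11 and 0.09 for the middle 98% of 15985 runs. The highest run reached 0.51 on chromosome 16, and all 35 runs beyond ±0.20 were there, while the highest run elsewhere reached 0.12 (chromosome 5) and the lowest -0.15 (chromosome 19). With longer runs of genes, tried as an alternative, no run went beyond ±0.20, the highest median (0.09) was on chromosome 8, and the highest on chromosome 16 was 0.0894. Within the highest run of 51 genes, the first and last gene called higher in DKO-C1 bound a stretch of 4.36 Mb on the long arm of chromosome 16, from 81445170 to 85807044 (hg38), from CMIP to COX4I1. It held 31 tested genes, of which 23 were higher in DKO-C1 and none lower, against 3.67% of all genes called higher. The stretch was chosen for this difference, so its counts are a description.

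Of 24 protein-coding genes in the stretch at 1 CPM or more in a line, 23 were called higher in DKO-C1, and the 24 had quartiles of 0.52 and 0.69 and a median of 0.60, which puts DKO-C2 at 66.1% of DKO-C1. MLYCD (0.25 ± 0.13) was the one not called. The 23 called genes include the phospholipase PLCG2 (0.66), the nucleolar exosome cofactor MPHOSPH6 (0.64), the proprotein convertase MBTPS1 (0.58) and the polymerase I factor TAF1C (0.71). Others are the deubiquitinase USP10 (0.59), the chromatin protein GSE1 (0.69), the replication factor GINS2 (0.60) and the cytochrome oxidase subunit COX4I1 (0.53). USP10 was lower than control by 0.26 in DKO-C1 and by 0.85 in DKO-C2. GINS2 was at 80.0, 77.4 and 80.4 CPM in DKO-C1, 50.9, 58.5 and 47.7 CPM in DKO-C2 and 80.6, 77.1 and 81.8 CPM in control, the DKO-C1 and control values overlapping. ATP2C2 (1.81), DNAAF1 (0.99) and OSGIN1 (0.92) differed most, and COTL1 (0.29) least among those called. The list members OSGIN1, GINS2 and COX4I1 lie in the stretch, so their calls are not separate from it.

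Taken per library as the median of the 24 genes relative to the control mean, the stretch stood at 0.01 to 0.07 in DKO-C1 and at -0.57 to -0.44 in DKO-C2. The 12 single knockout libraries lay between -0.06 and 0.13, control cells given JQ1 between 0.07 and 0.15, and DKO-C1 given JQ1 at 0.26 and 0.30, so the 3 DKO-C2 libraries were the only ones of the 26 far below control. Of the 24 genes, 16 were called lower than control and 2 higher in DKO-C2, and 3 lower and 11 higher in DKO-C1. The edges of the stretch were set by called genes, so its nearest neighbours in that run could not be called higher. PKD1L2, a polymorphic pseudogene just before the stretch, was at 2.91, 3.91 and 3.12 CPM in DKO-C1 and 2.51, 2.56 and 2.14 CPM in DKO-C2, which did not pass the test (0.47 ± 0.18, adjusted p = 0.11, edgeR). MTHFSD, beyond the far edge, differed by -0.04 ± 0.07. Of the 90 protein-coding genes plotted on both sides of the stretch, 2 were called higher and 2 lower, with a median of -0.02. After COX4I1, some genes were called lower in DKO-C1. LINC00917, a long intergenic RNA, was at 0.159, 0 and 0.0537 CPM in DKO-C1 and 1.5997, 2.12 and 1.78 CPM in DKO-C2, and FOXF1, a forkhead factor of gut mesenchyme, at 10.0, 9.80 and 11.2 CPM against 21.1, 23.0 and 19.9 CPM. Without library b, 22 of the 24 genes were called higher and the median was 0.61, and with ERCC factors the median was 0.37 and 6 were called.

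**Figure D5:**
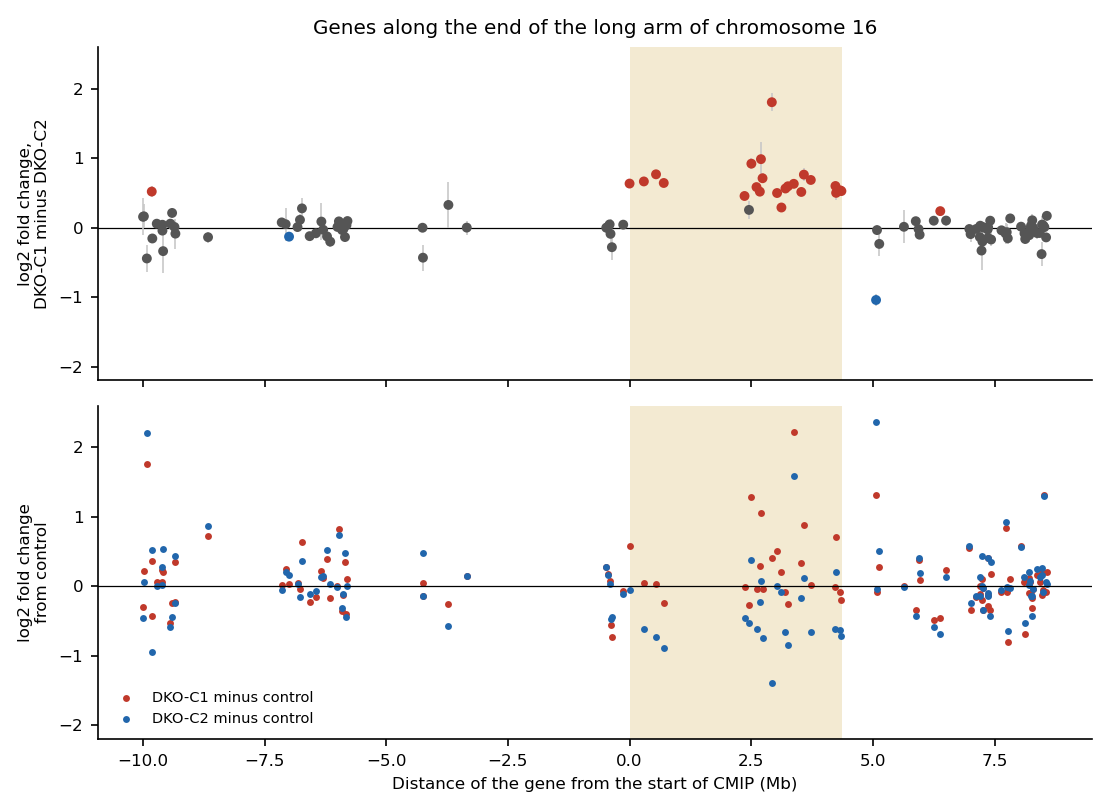
Protein-coding genes at the end of the long arm of chromosome 16, by distance from the start of CMIP in Mb: log2 fold change of DKO-C1 against DKO-C2 with standard errors (top; red called higher, blue called lower, dark grey not called) and of each line against control (bottom). Inside the shaded 4.36 Mb, 23 of 24 genes are called higher in DKO-C1, and of the 90 genes on both sides 2 are called higher and 2 lower, FOXF1 among the latter.

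A gene counted as switched when one line had at most 3 counts over its 3 libraries and the other a mean of 1 CPM or more, and ZNF595 was the only one. This zinc finger gene near the end of the short arm of chromosome 4 (53285 to 88211, hg38) had 0, 0 and 0.0537 CPM in DKO-C1, 3.73, 3.81 and 3.81 CPM in DKO-C2 and 3.25, 2.52 and 2.41 CPM in control. That is 1 count against 213, a ratio of 212 with a 95% exact binomial interval of 37.6 to 8405, which covers counting error only. The neighbours ZNF721 (0.22, called higher, 27.4% shared words) and PIGG (-0.01) were not lower. Chosen after these values were seen, the zinc finger genes of chromosome 19 whose symbols begin with ZNF had 12 of 163 called lower in DKO-C1 (7.36%) and none called higher, with a median of -0.04 over all 163. All genes of chromosome 19 were called lower in 8.30%, and all genes tested in 5.75%, so the share among the zinc finger genes was near that of their chromosome. ZNF850 was at 0.423, 0.521 and 0.430 CPM in DKO-C1, 2.88, 2.89 and 2.40 CPM in DKO-C2 and 2.03 to 2.47 CPM in control (-2.55 ± 0.26, adjusted p = 3.8e-09). ZNF350, ZNF432, ZNF426, ZNF550 and ZNF615 differed by 1.93 to 2.23 in the same direction at levels of at most 1.87 CPM in either line. ZNF350 and ZNF426 were below control in both lines, ZNF350 at 3.16 to 4.09 CPM in control, 1.03 to 1.20 CPM in DKO-C2 and 0.212 to 0.269 CPM in DKO-C1. CG dinucleotides per RefSeq promoter window had a median of 28.0 for all tested genes, 28.0 for those called higher and 31.0 for those called lower in DKO-C1.

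The same comparison in the single knockouts gives a scale. CDK8KO-C1 and CDK8KO-C2 differed in 3636 genes (21.1%), 399 of them by at least 2-fold, and CDK19KO-C1 and CDK19KO-C2 in 8247 genes (48.0%), 1184 by at least 2-fold. The double knockout lines gave 1620 and 152. With ERCC factors the double knockout and CDK8KO pairs gave 966 genes each. Differences between pairs were not tested. The split of called genes then moved from 1980 higher and 1656 lower to 706 and 260 in the CDK8KO pair, and from 4092 and 4155 to 735 and 4474 in the CDK19KO pair. Of the 1620 genes, 712 were also called in the CDK8KO pair (44.0% of the former and 19.6% of the latter), 1065 in the CDK19KO pair (65.7% and 12.9%), 529 in both and 372 in neither.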

How the data were processed

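RNA-seq counts of 26 HCT116 libraries in 9 groups were used. The deposited table holds unnormalised whole-number counts of genes and ERCC transcripts. The submitters' processing notes name STAR 2.5.2, featureCounts of Subread 1.6.3 and hg38 as what the authors used. For the annotation release and strand setting, nothing was given in the sources used here. The names of 4 columns gave a group but no sample. One model covered the 26 libraries (edgeR 4.0.16 quasi-likelihood tests, R 4.3.3, limma 3.58.1, TMM scaling), after filterByExpr with a minimum count of 10 and total of 15. Calls used Benjamini-Hochberg adjusted p under 0.05 over all 17198 genes, two-sided, and CPM use TMM effective library sizes. The script was tested on simulated data. Positions, exon overlaps and shared 50-base words (1 in 8 sampled) come from GENCODE v29. Little shared sequence means under 10% of words and no same-strand exon overlap. Promoter sequences come from RefSeq.

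Named genes were the kinase module subunits, the 15 top rises and 15 top falls by fold among genes called with a mean of at least 5 CPM in a line and lines that do not overlap, passing over clone-based and uncharacterised noncoding names and pseudogenes, switched genes, and up to 4 called members per list with the largest change. Others in the text, among them all called members of the main lists, the chromosome 16 genes, the chromosome 19 zinc finger genes, LINC00917 and the genes printed as not called, were chosen after their values were seen. Some items, among them 1 of the 15 top rises, are not reported here. The members and lists were chosen with earlier results of these data known. Alternatives were DESeq2 1.42.0 and its size factors, limma voom, other filters, ERCC factors, fewer libraries, a replicate block, a 2-fold minimum, protein-coding genes and each library left out. Refitting the genes with little shared sequence, and the libraries tied to numbered samples alone, was added after seeing the data.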

Additional observations from a re-analysis of the deposited data

Results flagged for a closer look

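Of the 17198 genes tested, and of the 1620 called between the lines, 37 were called against control in opposite directions. Of these, 17 lay above control in DKO-C1 and below it in DKO-C2, and 20 the reverse. They were picked out because the same knockouts, set against the same control libraries, gave opposite changes in the lines, with the difference tested directly. Both comparisons share the control libraries. The side of control also depends on the scaling, which was TMM here. With ERCC factors the median of all genes against control moved to -1.03 in DKO-C1 and -0.81 in DKO-C2. Opposite calls were not recounted there. Beside ITGBL1, TNFSF4, ATP2C2, HMGN5, ZNF595, SUSD2 and DSC3 they include PRKAA2, a catalytic subunit of the energy sensor AMPK, at 23.8, 23.6 and 19.4 CPM in DKO-C1, 9.44, 8.66 and 10.3 CPM in DKO-C2 and 11.5, 12.3 and 11.2 CPM in control. The deacetylase SIRT1 went the other way, at 38.7, 35.8 and 35.9 CPM, 61.8, 52.1 and 63.8 CPM, and 49.2, 52.4 and 48.1 CPM. CPEB2, which regulates translation of bound mRNAs, was at 3.33 to 3.70 CPM in DKO-C1, 0.599 to 0.800 CPM in DKO-C2 and 1.605 to 1.84 CPM in control. The fucosyltransferase FUT3 differed by 2.12 ± 0.25, with 12.6% of its sampled words shared with other genes.

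The chromosome 16 stretch was flagged because its level differed between the lines. All 3 DKO-C1 libraries lay slightly above the control mean, within the range of the single knockout libraries, and all 3 DKO-C2 libraries far below it. The means over libraries were 0.0521 ± 0.035 (SD, n = 3) and -0.513 ± 0.068 (SD, n = 3) on the log2 scale, and no test was made of this, as the stretch was chosen for the difference.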

How the results depend on the processing

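The count of genes called between the lines ran from 982 to 2101 with 1 library left out. It was 30 against a 2-fold minimum change, 966 with ERCC factors and 693 with the 6 libraries alone, where fewer genes (14886) were tested. Fitted likewise on their own libraries, the CDK8KO pair gave 5225 calls (3636 in the shared fit) and the CDK19KO pair 8255 (8247). Against the 2-fold minimum the counts were 1946 and 2138 for DKO-C1 and DKO-C2 against control, 107 for the CDK8KO pair and 456 for the CDK19KO pair. ERCC factors gave 14995 for DKO-C1 against control, 966 for the CDK8KO pair and 5209 for the CDK19KO pair. ERCC factors moved the median of all genes to -1.03 for DKO-C1 and -0.81 for DKO-C2 against control, where 422 genes were higher and 14573 lower in the first, and 766 higher and 13089 lower in the second. With little shared sequence, where fewer genes are tested, 6318 and 6682 genes differed from control. The highest chromosomal run was 0.0902 with longer runs of genes, where it lay on chromosome 8 and the highest on chromosome 16 was 0.0894, and 0.285 with ERCC factors. Under ERCC factors 146 of the 1620 called genes changed sign, none of them called there. The 12 of these among the genes followed by name were RPF2 (-0.054), GRB10 (-0.046), XBP1 (-0.014), ATF6 (-0.053), ELOVL6 (-0.032), CTSL (-0.034), PKP2 (-0.058), PKP3 (-0.031), LAMB3 (-0.043), SLC7A1 (-0.019), PSPH (-0.015) and GSR (-0.021). The cause was not tested for any of these shifts. DESeq2, its size factors, limma voom, both other filters and protein-coding genes alone gave 1481 to 1645 calls between the lines. All 30 of the largest rises and falls stayed called in every alternative that tested them except the 2-fold minimum. The 281 genes followed by name, list members included, were less stable. Of them, 76 lost their call in the fit of the 6 libraries alone, 59 without DKO-C1 library 1 and 44 without library b of DKO-C2. With ERCC factors 87 lost it, beside the 12 that changed sign. Where DKO-C2 was compared, no paired analysis was possible because its columns carry a clone number that matches no sample title. In the other comparisons, over the 22 libraries tied to numbered samples, the replicate block gave 9936 calls for DKO-C1 against control (9988 without the block), 4106 for the CDK8KO pair (4201) and 8656 for the CDK19KO pair (8711). Same-numbered libraries shared only a number: their deviations from the group means correlated across genes at -0.00837 to 0.0178, and not every library correlated best with its own number. Genes under about 1 CPM rest on few counts, and small differences there were not detectable at this depth.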
